A study of Rattus norvegicus with 8 samples.

Results

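The genes described here build and police the mitotic spindle. They were chosen by name as 43 genes for mitotic cyclins, the spindle checkpoint, the kinetochore, spindle kinases and motors, cytokinesis and chromosome condensation, and the brightest probe set by mean signal over the 8 arrays stood for each gene. Of the 43, 38 had a probe set with exactly 1 gene symbol, among 14218 such genes, and all 38 passed the filter on dim probe sets, among 10048 genes tested. Kif4a, Ndc80, Nek2 and Tpx2 had no probe set with their symbol, and Anln shared its probe set with another symbol, so these 5 have no value here.

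FRTL-5 is a continuous line of rat thyroid follicular cells, here its sub-clone SB5. The study asked how iodide alters transcripts in a culture model of thyroid autonomy, in which thyroid cells work without control by thyrotropin (TSH). All 4 groups carried a stably expressed human TSH receptor and received bovine TSH at 5 mU/ml. The receptor was wild type in one line and L629F, a mutant form that signals in the absence of hormone, in the other, and each line was given 1 mM sodium iodide (NaI) or 1 mM sodium chloride (NaCl), with 2 arrays per group. There was 1 line per receptor form, so the receptor and any other difference between the lines cannot be told apart. The labels do not say how long iodide was given or that the 2 arrays of a group came from separate cultures, and p-values here reflect the spread between these samples alone, which may be technical.

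A cell that enters mitosis makes cyclins A and B, which switch on the kinase Cdk1, and the chromosomes are then condensed and attached to the spindle through their kinetochores. The spindle checkpoint holds back the anaphase-promoting complex until every chromosome is attached, after which securin and cyclin B are destroyed and the cell divides. Transcripts of these genes peak together in G2 and M phase through promoter elements known as the CHR and the CCAAT box, and in thyroid cells growth is driven by TSH and curbed by excess iodide. In RNA from a whole culture, fewer dividing cells and less RNA per dividing cell cannot be told apart.

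Promoters are shown because these genes are known for a shared promoter design, and the 4 printed belong to the genes with the smallest p for iodide that had an entry. The sequences are RefSeq's, build GRCr8, and run 5′ to 3′ in the direction of the gene from 250 bases before to 50 bases after its start. Capitals mark the CHR letters TTTGAA or TTCGAA and the CCAAT letters, each searched on both strands, so that ATTGG is a CCAAT box read from the other strand. Nuf2 lies at chr13:84255549-84255848 on the minus strand, Cdc20 at chr5:137255750-137256049 on the minus strand, Mki67 at chr1:199952544-199952843 on the minus strand and Plk1 at chr1:186147408-186147707 on the plus strand.
Nuf2: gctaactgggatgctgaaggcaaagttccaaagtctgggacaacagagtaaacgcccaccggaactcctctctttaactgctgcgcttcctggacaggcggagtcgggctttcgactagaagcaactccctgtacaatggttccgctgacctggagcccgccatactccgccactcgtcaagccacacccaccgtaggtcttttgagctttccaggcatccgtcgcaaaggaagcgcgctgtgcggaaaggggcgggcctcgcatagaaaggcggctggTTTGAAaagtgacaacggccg
Cdc20: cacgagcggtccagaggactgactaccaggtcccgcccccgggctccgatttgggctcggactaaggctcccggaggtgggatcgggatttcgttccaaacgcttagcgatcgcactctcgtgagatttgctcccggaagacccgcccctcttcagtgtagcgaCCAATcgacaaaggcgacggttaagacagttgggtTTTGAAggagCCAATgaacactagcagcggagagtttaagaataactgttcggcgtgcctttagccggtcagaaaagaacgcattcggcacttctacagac
Mki67: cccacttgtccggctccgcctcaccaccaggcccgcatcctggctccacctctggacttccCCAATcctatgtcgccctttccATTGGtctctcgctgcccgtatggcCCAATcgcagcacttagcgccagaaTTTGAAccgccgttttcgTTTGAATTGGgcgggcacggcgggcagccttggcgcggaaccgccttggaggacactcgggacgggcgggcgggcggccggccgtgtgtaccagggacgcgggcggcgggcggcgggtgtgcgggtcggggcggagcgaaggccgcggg
Plk1: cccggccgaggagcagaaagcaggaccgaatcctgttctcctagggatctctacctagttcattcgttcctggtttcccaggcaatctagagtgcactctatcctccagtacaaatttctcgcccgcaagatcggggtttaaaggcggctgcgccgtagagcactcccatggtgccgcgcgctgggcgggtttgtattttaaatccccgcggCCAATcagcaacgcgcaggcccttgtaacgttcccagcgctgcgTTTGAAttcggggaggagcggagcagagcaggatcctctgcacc
In Cdc20 the CHR began 51 bases before the start, between CCAAT boxes at 86 and 41 bases before it. The window of Mki67 held CHR letters at 117 and 99 bases before the start and CCAAT letters at 189, 167, 142 and 94, the last of which overlapped a CHR. In Plk1 the CCAAT box began 38 bases before the start and the CHR 6 bases after it. Nuf2 had a CHR 29 bases after its start and no CCAAT letters in the window.

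An entry was found for 33 of the 38 genes. The CHR letters were in 25 of the 33 (75.8%), against 6608 of all 33469 promoters (19.7%). The CCAAT letters were in 26 (78.8%, against 37.5%), and both were in 22 (66.7%, against 7.95%). At least 2 CCAAT boxes were found in 18 (54.5%, against 11.2%). The letters of an E2F site, searched as TTTGGCGC, TTTCGCGC and TTTCCCGC on both strands, were in Cdk1 alone (3.03%, against 1.72% of all promoters). These are matches of letters, not measured binding. The 8 genes without CHR letters in the window were Ccnb1, Bub1, Aurka, Cenpe, Kif11, Kif2c, Kif20a and Ncaph.

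Thyroid identity was checked on 11 follicular markers, of which 9 were tested. Signals ran from 10747.5 to 16582 for thyroglobulin (Tg), from 5506 to 8086 for Pax8 and from 344.9 to 719 for the rat TSH receptor gene (Tshr). Among the 9, the iodide transporter gene Slc5a5 fell (-1.02, adjusted p = 0.0270, lost in 5 of 8 fits with an array left out) and the homeobox gene Hhex rose (0.38, adjusted p = 0.0453, lost in 7 of 8) with iodide, and the oxidase gene Duox2 was higher in L629F cells (0.50, adjusted p = 0.0257, lost in 7 of 8). Their part in the results for mitotic genes was not tested. Markers of other cells were dim: 2 of 6 fibroblast, 1 of 4 C cell, 2 of 5 leucocyte and 0 of 4 endothelial markers passed the filter, and the summed fibroblast signal was 301 to 326 and 341 to 419 in wild type and 342 to 399.9 and 312 to 506 in L629F cells, without and with iodide. Median array signals were 118 to 127 in wild type and 138 to 147 in L629F cells. The ratio of 3′ to 5′ GAPDH probe set signals, a sign of RNA degradation, was 1.22 to 2.17 on chloride and 1.40 to 3.13 on iodide arrays. The same ratio for beta-actin on chloride arrays was 2.23 and 5.05 in wild type and 5.93 and 7.90 in L629F cells. On iodide arrays it was 3.66 and 9.15 in wild type and 5.95 and 6.48 in L629F cells. The lowest mitotic gene signal on any array was 310.4, for Cenpe, against a mean signal of 65.3 at the filter.

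Most of the 38 genes had their lowest signals in L629F cells without iodide. That group had the lowest mean of the 4 for 29 of the 38 genes, against 26.8% of all genes, and wild type cells with iodide had the highest mean for 22, against 29.6% of all genes. Taken per array as the log2 deviation from each gene's mean over the arrays, the median gene stood at 0.04 and -0.02 in wild type chloride, 0.15 and 0.12 in wild type iodide, -0.16 and -0.20 in L629F chloride, and 0.06 and 0.04 in L629F iodide. Both L629F chloride arrays lay below all other arrays, and both wild type iodide arrays lay above all others. Of the 38 genes, 5 and 3 were above their own mean on the L629F chloride arrays, and 16 to 29 on each of the 6 other arrays. Arrays of a group were close: the median absolute difference between them was 0.09 to 0.18 log2 over the 38 genes, against 0.18 to 0.24 over all genes. These sets were not matched for signal, and the lowest mean signal of the 38 was 462, for Cenpe, against 65.3 at the filter.

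**Figure D1:**
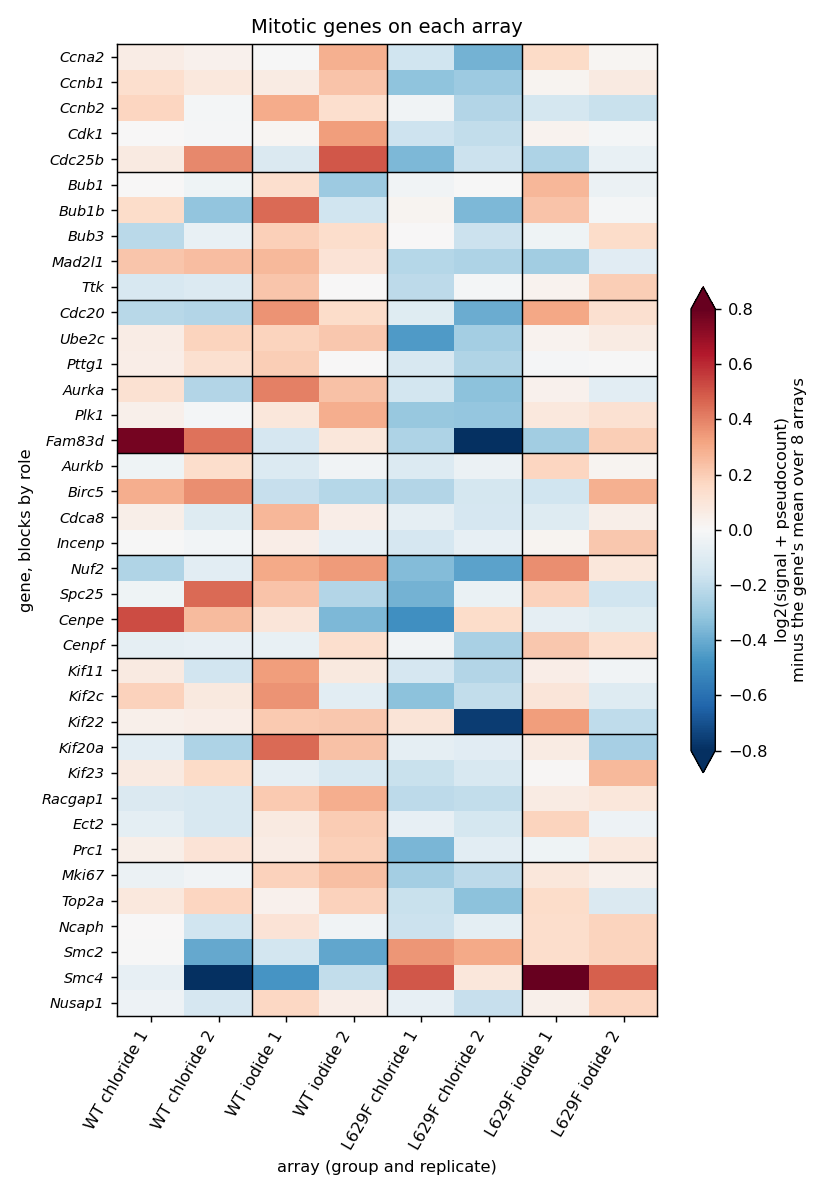
Log2 deviation of each of the 38 mitotic genes from its own mean over the 8 arrays (colour, clipped at 0.8 on either side), with genes by role in rows and arrays by group in columns. The L629F chloride columns are mostly low, with medians of -0.16 and -0.20, while Smc2 and Smc4 are high on the L629F arrays.

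Iodide against chloride, averaged over both lines, asks which mitotic transcripts move with iodide on average, and a change in 1 line alone can pass. Nuf2, a kinetochore subunit, and Cdc20, the activator of the anaphase-promoting complex, rose, and no other gene of the 38 passed the threshold of an adjusted p of 0.05 (limma, Benjamini-Hochberg over all 10048 genes). Among all genes 0.518% were called higher and 1.08% lower, so 2 higher and 0 lower of 38 is a small count on a small background. The log2 change was above 0 for 33 of the 38, against 52.2% of all genes, with a median of 0.20 against 0.01, and ran from -0.22 to 0.55. At an unadjusted p of 0.05, 12 genes were higher (7.92% of all genes) and 0 lower (7.3%). The arrays did not overlap in either line, with iodide on top in both, for Cdk1, Ttk, Cdc20, Aurka, Plk1, Nuf2, Cenpf, Kif11, Racgap1, Ect2, Mki67 and Nusap1, which are 12 of 38 against 8.19% of all genes, and no gene of the 38 was apart the other way in both (6.07% of all genes). With the GAPDH ratio as a covariate the median change was 0.19 and 33 were above 0.

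Nuf2 is a subunit of the NDC80 complex, which holds the spindle microtubules at the kinetochore. Its signal was 2712 and 3026 in wild type cells with chloride and 3965 and 4074 with iodide. L629F cells had 2517 and 2379.7 with chloride and 4162 and 3426 with iodide. All 4 iodide arrays were above all 4 chloride arrays. The log2 change was 0.55 ± 0.10 (SE, adjusted p = 0.0138), made up of 0.48 ± 0.14 in wild type and 0.62 ± 0.14 in L629F cells (adjusted p = 0.173 and 0.156, the smallest of the 38 in each line). The call was lost without wild type chloride array 1 (adjusted p = 0.110) or 2 (0.0552), L629F chloride array 2 (0.0691) or L629F iodide array 1 (0.0763), with changes of 0.48 to 0.59, and without an intensity trend in the variance (0.121).

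The partners of the anaphase-promoting complex were its activator Cdc20, its ubiquitin-conjugating enzyme Ube2c and the securin Pttg1, which guards separase. Cdc20 read 2022 and 1998 in wild type cells with chloride and 3045 and 2621 with iodide, and 2209 and 1783 in L629F cells with chloride and 2935 and 2589.6 with iodide. Here too all 4 iodide arrays were above all 4 chloride arrays. The change was 0.48 ± 0.11 (adjusted p = 0.0463), with 0.48 ± 0.15 in wild type and 0.47 ± 0.15 in L629F cells. The call sat at the threshold and was lost whenever any 1 array was left out (adjusted p 0.0514 to 0.197, changes 0.40 to 0.55), and 4 dimmer probe sets of Cdc20 gave 0.21, 0.30, 0.05 and 0.79. With each gene as the mean of its kept probe sets, the change was 0.37 (adjusted p = 0.269). Ube2c had 3654 and 3972 without and 3972 and 4088 with iodide in wild type cells, and 2553 and 2901 without and 3585 and 3681 with iodide in L629F cells. The L629F groups were apart and the wild type groups met, and the change of 0.25 ± 0.09 did not pass (adjusted p = 0.212). Pttg1 gave 0.10 (adjusted p = 0.678).

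**Figure D2:**
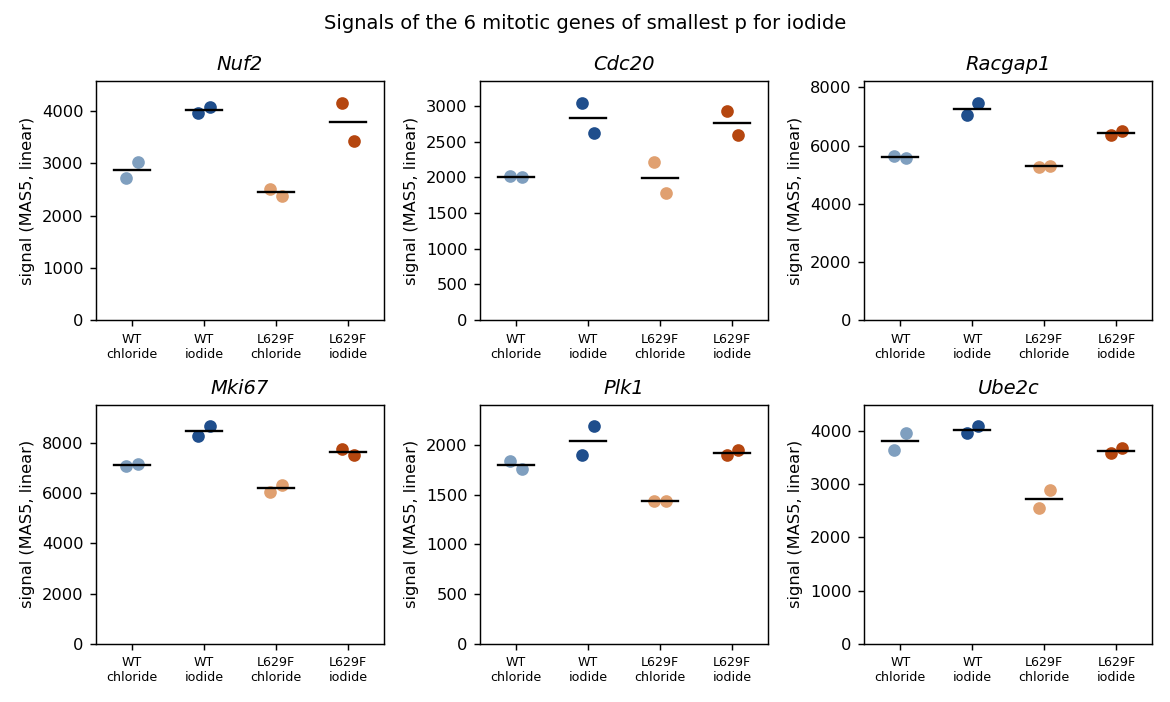
Signal (linear scale) on each array for the 6 mitotic genes with the smallest p for iodide, Nuf2, Cdc20, Racgap1, Mki67, Plk1 and Ube2c, with dots for arrays and bars for the means of 2 arrays. For Nuf2 and Cdc20 the 4 iodide arrays lie above the 4 chloride arrays, and for Ube2c the L629F chloride arrays, at 2553 and 2901, stand lowest.

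The average iodide change of the cyclins, Cdk1 and its phosphatase was above 0 for 5 of 5, with a median of 0.18, and none passed. Ccna2, the cyclin A that acts from S phase into early mitosis, read 2724 and 2675 without and 2606 and 3184 with iodide in the wild type. L629F cells had 2336 and 1999.5 without and 2915 and 2641 with iodide. The wild type groups overlapped and the L629F groups did not, and the average change was 0.22 ± 0.11 (adjusted p = 0.337). Ccnb1, the main cyclin of mitotic entry, had 2834 and 2731 against 2694 and 3025 in wild type and 2053 and 2096 against 2619 and 2706 in L629F cells, chloride first. The change was 0.04 in wild type and 0.35 ± 0.13 in L629F cells, and neither passed (adjusted p = 0.512 for the latter). Cdk1, the kinase these cyclins activate, gave 0.18 in each line (average adjusted p = 0.412), and Ccnb2 gave 0.14 and -0.03. Cdc25b, a phosphatase that switches Cdk1 on, gave -0.04 in wild type and 0.11 in L629F cells.

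Checkpoint genes had a median of 0.22 and none passed. Ttk, the kinase that starts checkpoint signalling at unattached kinetochores, read 3314 and 3359 in wild type chloride and 4241 and 3632 in wild type iodide arrays, and 3136 and 3591 against 3704 and 4158 in L629F cells. The iodide arrays were on top in each line, with a change of 0.23 ± 0.10 (adjusted p = 0.287). Bub3, which brings checkpoint kinases to the kinetochore, had 5582 and 6229.8 against 7399.9 and 7153 in wild type and 6488 and 5748 against 6317 and 7187 in L629F cells. Its change was 0.22 ± 0.09 (adjusted p = 0.258), but -0.05 as the mean of its probe sets, the other of which gave -0.33. The kinase Bub1 (0.03) and Mad2l1, the checkpoint protein that binds Cdc20 (-0.00 ± 0.10), were near 0, and the pseudokinase Bub1b gave 0.25 ± 0.16 with arrays of a group as far apart as 1746 and 1128.

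Among the spindle kinases, Plk1, which drives spindle assembly and mitotic exit, read 1833 and 1759.9 in wild type chloride and 1899 and 2185 in wild type iodide arrays. L629F cells had 1435 and 1433 without and 1894 and 1946 with iodide. The iodide arrays were above the chloride arrays in each line, and the change was 0.30 ± 0.10 (adjusted p = 0.171). Aurka, the centrosome kinase of spindle assembly, had 1971 and 1529 against 2397 and 2132 in wild type and 1629.9 and 1430.1 against 1854 and 1703 in L629F cells, with a change of 0.29 ± 0.11 (adjusted p = 0.228). The chromosomal passenger complex, which corrects faulty attachments, had a median of 0.07. Its kinase Aurkb gave 0.03, its scaffold Incenp 0.11, Cdca8 0.13 ± 0.12 and Birc5 (survivin) -0.15 ± 0.13 (adjusted p = 0.647 and 0.655 for the last pair).

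At the kinetochore the other 3 genes did not pass. Cenpf, a large kinetochore protein made in G2, read 2617 and 2636 against 2637 and 3029.7 in wild type and 2700.0 and 2298 against 3211 and 3021 in L629F cells, chloride first. Both lines were separated, though the nearest wild type arrays were almost level, and the change was 0.21 ± 0.10 (adjusted p = 0.341). Spc25, another NDC80 subunit, gave 0.01, and the kinesin Cenpe, which moves chromosomes to the spindle equator, gave -0.22 ± 0.17 (adjusted p = 0.607). The kinesins of the spindle had a median of 0.22: Kif11, which pushes the poles apart, gave 0.22 ± 0.10 (adjusted p = 0.335), Kif22, a chromosome-arm motor, by 0.28 ± 0.17 (adjusted p = 0.467) and the microtubule depolymeriser Kif2c by 0.13. The 2 L629F arrays of Kif22 differed widely, with 3062 and 1663 under chloride and 3592 and 2464 under iodide.

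Genes of the central spindle and cytokinesis all had values above 0, 5 of 5 with a median of 0.21. Racgap1, the GTPase-activating subunit of centralspindlin, had the third smallest p of the 38. It read 5625 and 5565 without and 7051 and 7471 with iodide in wild type cells, and 5273 and 5304 without and 6369.9 and 6488 with iodide in L629F cells. All 4 iodide arrays exceeded all 4 chloride arrays, yet the change of 0.33 ± 0.08 did not pass (adjusted p = 0.0671), and a dimmer probe set gave 0.13. Ect2, the exchange factor that Racgap1 recruits to start the cleavage furrow, had 5384 and 5208 against 5989.9 and 6551 in wild type and 5439.6 and 5171 against 6443 and 5534 in L629F cells. Its arrays also kept apart, with a change of 0.21 ± 0.09 (adjusted p = 0.294). Prc1, which bundles the midzone microtubules, gave 0.15, and the midzone kinesins Kif20a and Kif23 gave 0.25 ± 0.11 and 0.04.

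Of the genes for chromosome structure, none passed for iodide. Mki67, which coats mitotic chromosomes and is the usual proliferation marker, read 7065 and 7176 against 8295 and 8657 in wild type and 6056 and 6328 against 7769.9 and 7516 in L629F cells. All iodide arrays were above all chloride arrays, with a change of 0.28 ± 0.08 (adjusted p = 0.111). Nusap1, a protein that ties microtubules to chromatin, had 3520.1 and 3299 against 4064 and 3755 and then 3459 and 3187 against 3738 and 4087, and gave 0.21 ± 0.09 (adjusted p = 0.285). Topoisomerase Top2a gave 0.13, and the condensin subunits Ncaph, Smc2 and Smc4 gave 0.20, -0.12 and 0.33 ± 0.20. The 95% interval of an average change reached, at the median gene, 0.22 to either side (unadjusted), and 0.48, for Cdc20, was the smallest iodide change of the 38 that passed.

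Within wild type cells 0 of the 38 genes passed, against 0.458% of all genes, and 7 were higher (6.22%) and 2 lower (6.29%) at an unadjusted p of 0.05. In L629F cells 0 passed, against 0.0896%, and 10 were higher (3.73%) and 0 lower (4.45%) at an unadjusted p of 0.05. The change was above 0 for 27 of 38 in wild type (53.2% of all genes) with a median of 0.11, and for 35 of 38 in L629F cells (51.4%) with a median of 0.24. Both lines were above 0 for 25 genes, against 32.5% of all genes. Below 0 in wild type and above 0 in L629F cells were 10 genes, against 18.8% of all genes, and the reverse pair was Ccnb2 and Kif20a. Smc2 was below 0 in both. The arrays did not overlap, with iodide on top, for 16 genes in wild type (23.7% of all genes) and 23 in L629F cells (20.2%). Iodide arrays lay below for Fam83d, Birc5, Cenpe and Kif23 in wild type (4 genes, 19.5% of all genes) and for Smc2 in L629F cells (1 gene, 18.5%).

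The difference between the lines was tested as an interaction. It called 0 of the 38 genes and 0% of all genes, and the smallest adjusted p of the 38 was 0.993. The difference was above 0 for 27 of the 38, against 47.8% of all genes, with a median of 0.16. At an unadjusted p of 0.05, Fam83d, Birc5 and Kif23 (2.14% of all genes) had a more positive iodide change in L629F cells, and Kif20a (2.02%) a more negative one. Fam83d, which anchors casein kinase at the spindle, read 1448 and 1147 without and 762 and 897 with iodide in the wild type. L629F cells had 700.3 and 455 without and 686 and 968 with iodide. The wild type groups were apart and the L629F groups overlapped, with changes of -0.62 ± 0.23 and 0.50 ± 0.23 and a difference of 1.12 ± 0.32. Birc5, a passenger protein that also blocks cell death, had 954 and 1012 against 674 and 655 in wild type and 650.3 and 699 against 689 and 948 in L629F cells. Its wild type groups were apart and its L629F groups overlapped, with a difference of 0.79 ± 0.26. Kif20a read 1581 and 1413 against 2309.8 and 1986 in wild type and 1596 and 1575 against 1761 and 1394 in L629F cells, a difference of -0.53. Kif23 gave -0.21 and 0.29, a difference of 0.50 ± 0.20. Its dimmer probe set gave -0.44 in wild type and -0.22 in L629F cells, a difference of 0.22. The 95% interval of this difference reached 0.44 to either side at the median gene (unadjusted), and even the 1.12 of Fam83d did not pass.

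**Figure D3:**
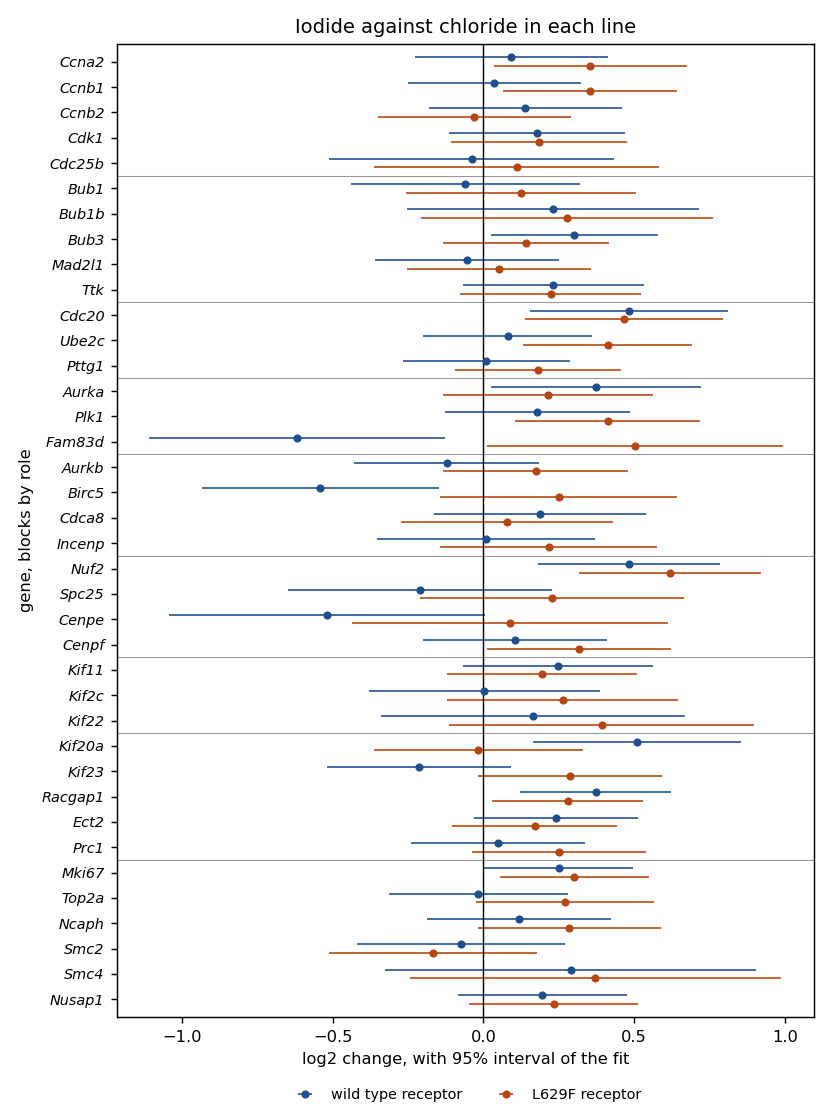
Log2 change with iodide for each of the 38 mitotic genes in wild type and in L629F cells, as points with 95% intervals, with a line at 0 for no change. L629F values are above 0 for 35 genes and wild type values for 27, and the iodide changes of the lines differ by 1.12 for Fam83d, 0.79 for Birc5, 0.61 for Cenpe and -0.53 for Kif20a.

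The comparison of L629F with wild type cells, averaged over both salts, asks which mitotic transcripts differ between the lines at equal iodide. The condensin genes Smc4 and Smc2 were higher in L629F cells and the checkpoint gene Mad2l1 lower, which are 2 higher of 38 against 2.04% of all genes and 1 lower against 1.09%. The other 35 did not pass. Values were below 0 for 30 of the 38, against 50.6% of all genes, with a median of -0.17 against 0.00 and a range from -0.58 to 0.96. At an unadjusted p of 0.05, 9 were lower (9.42%) and 2 higher (10.3%). The arrays did not overlap under either salt for Ccnb2, Mad2l1, Ube2c, Pttg1, Racgap1 and Mki67, lower in L629F cells (6 of 38, against 8.41%), and for Smc2 and Smc4, higher (2 of 38, against 9.33%).

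The scaling of the arrays bears on these counts. Centring each array on the median of all its probe sets moved the median receptor change of all genes to -0.17, and then 18 of the 38 passed and all genes split into 143 higher and 1227 lower, in place of 205 and 110. Smc2 was then not called (0.32, adjusted p = 0.0915), and the median of the 38 was -0.34. The same centring turned the split of all genes for iodide from 52 higher and 109 lower to 94 and 95. It moved the median iodide change of all genes to 0.04. Centring on the median of the kept probe sets instead left the same 3 receptor calls, Mad2l1, Smc2 and Smc4. All genes then split into 191 higher and 117 lower, with a median receptor change of -0.02. The lower quartile of array signal was 29.3 to 31.6 in wild type and 40.8 to 43.1 in L629F cells.

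Smc4 and Smc2 form the ATPase core of condensin, the complex that compacts mitotic chromosomes. Smc4 read 1120.0 and 499.8 in wild type chloride, 838 and 1022 in wild type iodide, 1671 and 1252 in L629F chloride and 2140.1 and 1653 in L629F iodide arrays. All 4 L629F arrays were above all 4 wild type arrays, and wild type chloride array 2 stood far below its partner. The difference was 0.96 ± 0.20 (adjusted p = 0.0240), and 0.68 (adjusted p = 0.0835) without that array. It also missed the threshold without wild type iodide array 1 (adjusted p = 0.0597), L629F chloride array 1 (0.104) or L629F iodide array 1 (0.0928), and with no filter (0.0571) or no intensity trend (0.0996), while a dimmer probe set gave 0.30. Smc2 had 2563 and 1918, then 2308 and 1917 in wild type cells, and 3285 and 3168, then 2831 and 2908 in L629F cells, chloride first. Again no L629F array was as low as any wild type array. The difference was 0.49 ± 0.11 (adjusted p = 0.0368), and it remained past the threshold without wild type chloride array 1 or wild type iodide array 1 but in none of the 6 other fits with an array left out (adjusted p 0.0874 to 0.162). Of the remaining genes for chromosome structure, Mki67 gave -0.17 ± 0.08 (adjusted p = 0.253), Top2a -0.24 ± 0.10 (0.200), Nusap1 -0.02 and the condensin subunit Ncaph 0.04.

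Mad2l1, the inhibitor that captures Cdc20 while chromosomes are unattached, read 2432 and 2475 in wild type chloride and 2488 and 2241 in wild type iodide arrays. L629F cells had 1768 and 1746 without and 1703 and 1951 with iodide. The L629F arrays were below every wild type array. The difference was -0.42 ± 0.10 (adjusted p = 0.0390), past the threshold in 1 of 8 fits with an array left out (without wild type iodide array 2) and at an adjusted p of 0.0569 to 0.146 in the others. Other probe sets of the gene gave -0.08 and -0.39, and the mean of its kept probe sets gave -0.30 (adjusted p = 0.176). The call was also lost after quantile normalization (0.0543), with all kept probe sets in 1 fit (0.0582) and without an intensity trend (0.0991). Among its checkpoint partners, Bub1 had 1321 and 1286, then 1455 and 1072 in wild type and 1294 and 1319.6, then 1598 and 1275 in L629F cells, which overlapped, and differed by 0.10 ± 0.13 (adjusted p = 0.715). Ttk gave 0.00, Bub3 -0.03 and Bub1b -0.06.

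**Figure D4:**
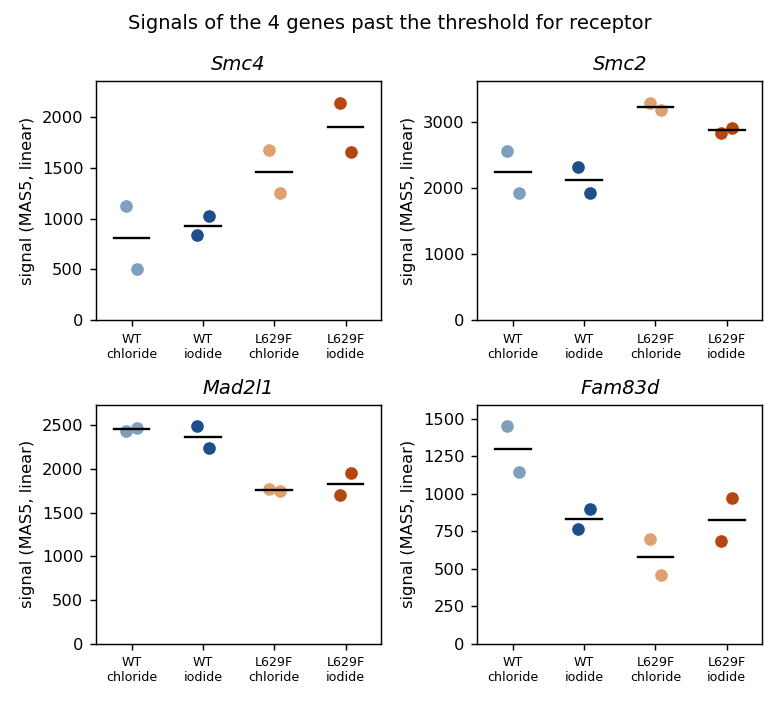
Signal (linear scale) on each array for Smc4, Smc2, Mad2l1 and Fam83d, the mitotic genes past the threshold in a comparison of receptors, with dots for arrays and bars for the means of 2 arrays. Smc4 and Smc2 are higher on all 4 L629F arrays and Mad2l1 is lower, while Fam83d is high only in wild type chloride, at 1448 and 1147.

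The cyclins, Cdk1 and Cdc25b were below 0 in L629F cells, 5 of 5 with a median of -0.26, and none passed. Ccnb2, the Golgi-linked cyclin B, read 2122 and 1863, then 2319 and 2074 in wild type and 1845 and 1597, then 1703 and 1658 in L629F cells, chloride first. The L629F arrays were below the wild type arrays under each salt, with a difference of -0.29 ± 0.11 (adjusted p = 0.147). Ccnb1, with the values given above, differed by -0.26 ± 0.09 (adjusted p = 0.152), made up of -0.42 ± 0.13 without and -0.10 with iodide. Cdc25b had 677 and 852, then 591 and 921 in wild type and 494 and 568, then 537 and 616 in L629F cells, a difference of -0.42 ± 0.15 (adjusted p = 0.158) with overlap under iodide. Cdk1 gave -0.17 and Ccna2 -0.18 ± 0.11.

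Partners of the anaphase-promoting complex lay at -0.31 ± 0.09 for Ube2c (adjusted p = 0.0854), -0.19 ± 0.09 for Pttg1 (0.268) and -0.03 for Cdc20. Pttg1 read 4498 and 4747, then 4980.1 and 4347 in wild type and 3965 and 3662, then 4314 and 4337 in L629F cells, and the nearest iodide arrays almost met. Plk1 and Aurka differed by -0.20 ± 0.10 and -0.26 ± 0.11 (adjusted p = 0.291 and 0.229). In the passenger complex, Cdca8 and Birc5 gave -0.13 each (adjusted p = 0.562 and 0.626) and Aurkb and Incenp 0.02 each. Cdca8, which targets the complex to centromeres, read 999 and 897, then 1169 and 1004 in wild type and 917 and 875, then 897 and 999 in L629F cells, and the groups overlapped without iodide.

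At the kinetochore, Nuf2 gave -0.16 (adjusted p = 0.406), Spc25 -0.20, Cenpf 0.03 and Cenpe -0.26 ± 0.17 (adjusted p = 0.434). Cenpe read 663 and 545, then 484 and 344 in wild type and 310.4 and 503, then 428 and 418 in L629F cells. Its L629F arrays were lower under chloride and lay between the wild type arrays under iodide. Kif2c had 1308 and 1213, then 1479 and 1078 in wild type and 904 and 994, then 1230.4 and 1064 in L629F cells, a difference of -0.27 ± 0.13 (adjusted p = 0.260). Kif11 differed by -0.17 (adjusted p = 0.388), with 2795 and 2391, then 3366 and 2812 in wild type and 2423 and 2258, then 2757 and 2604 in L629F cells. In cytokinesis, Prc1 read 5448 and 5695, then 5503 and 6027 against 4094 and 4973, then 5161 and 5607, a difference of -0.20 ± 0.09 (adjusted p = 0.264). Kif20a gave -0.18, Racgap1 -0.13 and Ect2 -0.03.

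Without iodide, 1 of the 38 genes passed, Fam83d, which fell by 1.14 log2 from wild type to L629F cells (-1.14 ± 0.23, adjusted p = 0.0479). Lower calls were 0.149% and higher calls 0.328% of all genes. The L629F values, 700.3 and 455, were below the wild type values, 1448 and 1147, but the call was lost in all 8 fits with an array left out (adjusted p 0.0505 to 0.373, differences -1.43 to -0.85) and at a pseudocount of 10 (0.0548). Values were below 0 for 31 of the 38 (49.2% of all genes) with a median of -0.19, and 11 were lower at an unadjusted p of 0.05 (6.41%) and 2 higher (7.26%). L629F arrays lay below the wild type arrays for 22 genes (22.9% of all genes) and above them for Smc2 and Smc4 (2 genes, 24.8%). With iodide, 0 of the 38 passed, against 0.488% of all genes, with 3 lower (5.58%; Ccnb2, Mad2l1 and Kif20a) and 2 higher (6.51%) at an unadjusted p of 0.05. The median was then -0.09, with 26 genes below 0 (51.5% of all genes), and Fam83d gave -0.02 ± 0.23. L629F arrays lay below for 10 genes (20.7%) and above for Aurkb, Birc5, Kif23, Ncaph, Smc2 and Smc4 (6 genes, 19.9%). Under both salts 22 genes were below 0 (32.8% of all genes) and Bub1, Smc2 and Smc4 above. The comparison of receptors without iodide shares the L629F chloride arrays with the comparison of iodide in L629F cells, so their values are given side by side only: Ccnb1 -0.42 and 0.35, Ube2c -0.48 and 0.41, Plk1 -0.32 and 0.41, and Fam83d -1.14 and 0.50.

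**Figure D5:**
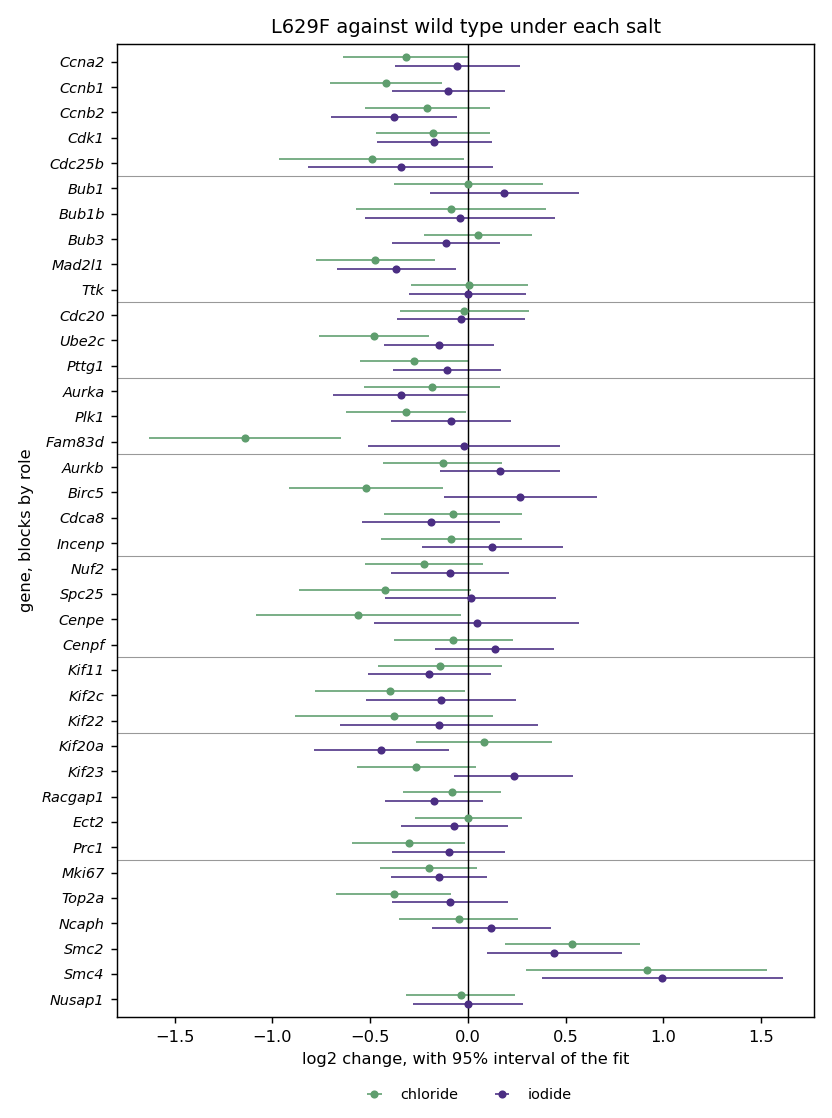
Log2 difference of L629F from wild type cells for each of the 38 mitotic genes under chloride and under iodide, as points with 95% intervals, with a line at 0 for no difference. Most points are below 0, with medians of -0.19 and -0.09, while Smc2 and Smc4 are above 0 under both salts and Fam83d is at -1.14 under chloride and -0.02 under iodide.

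Where a gene had further kept probe sets (18 for 13 genes), 12 of the 18 had the sign of the brighter one for iodide and 14 of the 18 for the receptor. For iodide these were 8 in wild type and 11 in L629F cells, and for the receptor 15 without and 10 with iodide. The 6 of opposite sign for average iodide were of Bub3 (-0.33), Incenp (-0.45), Kif2c (-0.22), Kif23 (-0.33), Mad2l1 (0.31) and Smc4 (-0.22). The 4 of opposite sign for the receptor were 2 of Cdc20 and 1 each of Bub3 and Incenp. Values also differed within a sign, as for Ttk (0.73 against 0.00 for the brighter one) and Nusap1 (-0.52 against -0.02).

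Other genes of mitosis, from lists chosen with results of these data known, were counted in the same way. For iodide, 52.2% of all genes were above 0 with a median of 0.01, and 0.518% were called higher and 1.08% lower. Of 27 tested of 31 further kinetochore and centromere genes, 0 passed for iodide, 23 were above 0 and the median was 0.18. The 31 tested of 37 further spindle and cytokinesis genes had 0 past the threshold, 24 above 0 and a median of 0.15, and the 15 tested of 16 for condensin, cohesin and sister separation had 0, 13 and 0.12. Among 17 subunits of the anaphase-promoting complex, 11 were above 0 with a median of 0.10, and Anapc13, a small subunit, rose. It read 1281 and 1708 against 2429 and 2299 in wild type and 1825 and 1593 against 2107 and 2724 in L629F cells, with all iodide arrays on top. Its change was 0.57 ± 0.12 (adjusted p = 0.0373), which passed in 1 of 8 fits with an array left out (adjusted p up to 0.212). Tubulins and their regulators (12 of 18) had 0 past the threshold, 10 above 0 and a median of 0.19. The 11 tested of 15 G1 cyclins, kinases and inhibitors, which act before S phase, had 0 past the threshold, 5 above 0 and a median of -0.10. Of 20 tested of 24 DNA replication genes, which peak earlier in the cycle than the mitotic genes, 19 were above 0 and the median was 0.28. The 5 that passed for iodide were Lig1, Rrm1, Mcm7, Mcm6 and Mcm5, all higher. The call of Lig1 held in all 8 fits with an array left out, that of Rrm1 in 4, of Mcm6 in 2 and of Mcm7 and Mcm5 in 1 each.

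In the comparison of receptors, 50.6% of all genes were below 0, and 2.04% were called higher and 1.09% lower. Foxm1, the forkhead factor that drives G2 and M genes, was lower in L629F cells. It read 790 and 766, then 938 and 721 in wild type and 473 and 395, then 542 and 525 in L629F cells, with no overlap. The difference was -0.70 ± 0.13 (adjusted p = 0.0140), and it was not called without either wild type chloride array (adjusted p = 0.0715 and 0.0747) or without L629F chloride array 2 (0.0591). Tfdp2, a partner of E2F factors, was higher (0.72 ± 0.15, adjusted p = 0.0237), but 0.19 as the mean of its probe sets and past the threshold in 2 of 8 fits with an array left out. Together they were 2 of 21 tested transcription regulators, 15 of which were below 0. Among the further kinetochore genes, Cenpw, a histone-fold protein of the inner kinetochore, was higher, with 1534 and 1691, then 1661 and 1413 in wild type and 2523 and 2621, then 2206 and 2496 in L629F cells. The groups stood well apart (0.63 ± 0.10, adjusted p = 0.00637), and the call held in all 8 fits with an array left out but not with the mean of its probe sets (0.35, adjusted p = 0.0743). Knl1, the scaffold on which checkpoint proteins gather, was also higher (0.97 ± 0.19, adjusted p = 0.0174), at signals of 108 to 184 in wild type and 256 to 386 in L629F cells, and was called in 4 of 8 such fits. The other 25 of these 27 genes did not pass, and 21 of the 27 were below 0. The spindle and cytokinesis list and the condensin and cohesin list had 0 past the threshold, with 25 of 31 and 10 of 15 below 0. Of the 20 DNA replication genes tested, 19 were below 0, with a median of -0.21, and 1 passed. Tubb6, a tubulin isotype, was lower (-0.47 ± 0.10, adjusted p = 0.0278), and was called in 2 of 8 fits with an array left out. Mcm2, a subunit of the replicative helicase, was lower as well (-0.52 ± 0.11, adjusted p = 0.0225), and was called in 2 of 8 such fits.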

How the data were processed

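Total RNA of 8 samples was labelled and hybridised to Affymetrix rat arrays of 1 colour. Per the submitters' processing notes the authors used MAS5, and each deposited value is a linear intensity for a probe set. The MAS5 version and scaling target were not given in the sources used here. The mean signal of an array, with 2% trimmed at either end, was 500.15 to 500.175 on every array. The fit left out 57 control probe sets and, by mean log2 signal, the dimmest 40% of all 31099, and kept 18631. Signals entered as log2(signal + 35.3), with the pseudocount at the lower quartile of all signals, so changes of dim genes are understated. Arrays were not centred: their medians spanned 0.06 over the kept and 0.253 over all probe sets. A gene was its brightest probe set by mean signal among those with 1 symbol in the platform annotation (20832 of 31099), which gave 10048 genes. limma 3.58.1 in R 4.3.3 (lmFit, eBayes with an intensity trend) fitted 4 group means with 4 residual and 9.37 prior degrees of freedom. The two-sided p-values of each comparison were adjusted by Benjamini-Hochberg across all genes tested, with a threshold of 0.05. The fit was tested on simulated data.

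The members, roles and lists were chosen with earlier results of these data known. Any member may be named. Members past the threshold and, per role, the 2 of smallest p for iodide and the 2 for the receptor are given in full, with up to 4 genes past the threshold per list. Mcm5, and array values of members beyond that rule, were added after their values were seen. Alternatives changed the pseudocount, filter, scaling, probe set choice, variance trend, replicate block, GAPDH covariate and threshold, and left out each array. The number of arrays limits the precision. Promoters came from RefSeq (GRCr8), matched by gene number for 33 of 38 genes. The first entry stood for each of the 33, and the shares of all promoters count every one of the 33469 entries. Python 3.11.15 with matplotlib 3.10.9 drew the figures.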

Additional observations from a re-analysis of the deposited data

How the results depend on the processing

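With 2 arrays per group, leaving out an array leaves a group with 1, which is then assumed to vary like the others. For iodide averaged over the lines, 2 mitotic genes passed as reported. The count was 1 with no filter, with the mean of a gene's kept probe sets and with all kept probe sets in 1 fit, 0 without an intensity trend, 3 when centred on all probe sets or at an adjusted p under 0.10 (with Racgap1), 3 with the GAPDH covariate (with Bub1b), and 0 to 1 with an array left out. The median change (0.20) was 0.23 with arrays centred on the kept probe sets, 0.15 after quantile normalization, 0.14 with the mean of probe sets, and 0.16 to 0.20 with an array left out. In wild type cells the median (0.11) was 0.15 under either centring (0.146 on the kept, 0.149 on all probe sets). It was 0.072 with the mean of probe sets, and 0.080 to 0.14 with an array left out. With the GAPDH ratio as a covariate 1 mitotic gene passed there, and 56 were higher and 138 lower over all genes, in place of 8 and 38. In L629F cells the median ran from 0.20 to 0.27, and that of the interaction from 0.10 to 0.18, with an array left out.

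For the receptor average, 3 genes passed as reported. The count was 1 with no filter or with all kept probe sets in 1 fit, 0 without a trend, 18 when centred on all probe sets, 5 with the GAPDH covariate and 5 at an adjusted p under 0.10, and 0 to 2 with an array left out. The median (-0.17) was -0.34 when centred on all probe sets, -0.14 after quantile normalization and -0.19 to -0.13 with an array left out, and the genes above 0 (8) were 2 under that centring and 5 to 11 with an array left out. Without iodide, the 1 call was absent (0) at a pseudocount of 10, with no filter, with the lowest 60% left out, after quantile normalization, with the mean of probe sets, with all kept probe sets in 1 fit, without a trend and with any array left out. It became 2 when centred on all probe sets, with 17 higher and 71 lower over all genes. With the GAPDH covariate it became 3, with 130 higher and 127 lower over all genes, in place of 33 and 15. The median (-0.19) was -0.35 and -0.15 under that centring and quantile normalization, and -0.22 to -0.14 with an array left out, and 2 genes in place of 7 were above 0 under that centring. With iodide the median (-0.09) was -0.27 when centred on all probe sets and -0.043 after quantile normalization, and -0.12 to -0.050 with an array left out, and 5 genes in place of 12 were above 0.

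The labels do not say whether the replicate numbers pair the arrays. The differences between replicates correlated between groups at 0.05 to 0.23 across genes, all above 0 but not all over 0.1. With the replicate number as a block, 4 members passed for iodide and 5 for the receptor average. That block gave 1 for iodide in L629F cells, 4 for the receptor without iodide and 1 with iodide. Over all genes, calls for iodide in L629F cells moved from 1 higher and 8 lower to 7 and 46. For the receptor they moved from 33 and 15 to 124 and 119 without iodide, and from 36 and 13 to 113 and 56 with it. Calls over all genes rose from 52 higher and 109 lower to 250 and 270 for iodide averaged over the lines. For the receptor average they rose from 205 and 110 to 414 and 363. The fit reported here had no such block, so any effect shared by a replicate number stayed in its residual spread. Over the values of single genes, 890 of 1051 kept their direction and side of the threshold, 140 lost and 18 gained a call, and 3 that were called in no setting changed sign. These were Bub3 for iodide (-0.05 with the mean of its probe sets) and Bub1 for the receptor (-0.08 when centred on all probe sets, -0.01 without wild type iodide array 2). No called value changed sign. The causes were not tested. Dimmer probe sets of a gene did not always share the sign of the brightest.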
